A study of Mus musculus with 4 samples.

Results

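Caveolins and cavins build caveolae, the small flask-shaped pits of the plasma membrane. The 7 genes described here are the caveolins Cav1, Cav2 and Cav3 and the cavins Cavin1, Cavin2, Cavin3 and Cavin4, which the array annotation lists under 11 of its 22690 probe sets, 4 for caveolins and 7 for cavins. They were taken by gene symbol, and the family itself was chosen by its Wnt3A minus control differences on these same arrays, so those differences are given as a description with no test. The cells were C2C12, an established mouse myoblast line, grown with 20% fetal calf serum and held in semi-solid methyl cellulose, where loss of anchorage takes them into G0 (reversible quiescence). The first group was given purified Wnt3A at 50 ng/ml for 48 hours, and the control group spent 48 hours in suspension labelled as control, with no vehicle named. Each group had 2 Affymetrix arrays, called biological replicates in the labels without saying whether the cultures were started apart. Both groups are the same line in the same suspension, and no group is labelled as proliferating, adherent or differentiated. The treatment protocol names Wnt3A for all arrays alike, so the groups follow the titles and the treatment label.

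Caveolins are hairpin-shaped membrane proteins that bind cholesterol and assemble into oligomers. Cav1 is the main caveolin outside striated muscle, Cav2 joins Cav1 in mixed oligomers, and Cav3 is the caveolin of differentiated skeletal and cardiac muscle, where it is tied to T-tubules and to the dystrophin complex. Cavins coat the cytoplasmic side of the pits. Cavin1 is needed to form them, Cavin2 and Cavin3 join it in the coat, and Cavin4, also known as Murc, is largely confined to muscle. Caveolae flatten when the membrane is stretched, and caveolin has been linked to the uptake of the Wnt receptor Lrp6.

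Signals are on a log2 scale, a difference is the Wnt3A mean minus the control mean, and errors are SDs over 2 arrays or the moderated standard error (SE) of limma. The median signals of the 4 arrays lay between 4.15 and 4.22. Axin2, a standard target of β-catenin, read 5.13 and 6.14 on the Wnt3A arrays, against 3.25 and 3.21 on the control arrays. The limit for dim genes, a mean signal of 2.18, was set by rank, and 9295 of the 12393 named genes passed it. Passing it therefore does not by itself show a cell type. All 8 markers of myoblasts were above this limit, among them Myod1, Des and Cdh15. Above it were also 8 of 9 markers of smooth muscle cells and pericytes, 4 of 9 of endothelial cells and 4 of the 7 of adipocytes on the array. Pecam1, Cdh5, Tek and Tie1 of endothelial cells and Adipoq and Cidec of adipocytes were below it. The number of arrays limits the precision throughout.

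**Figure D1:**
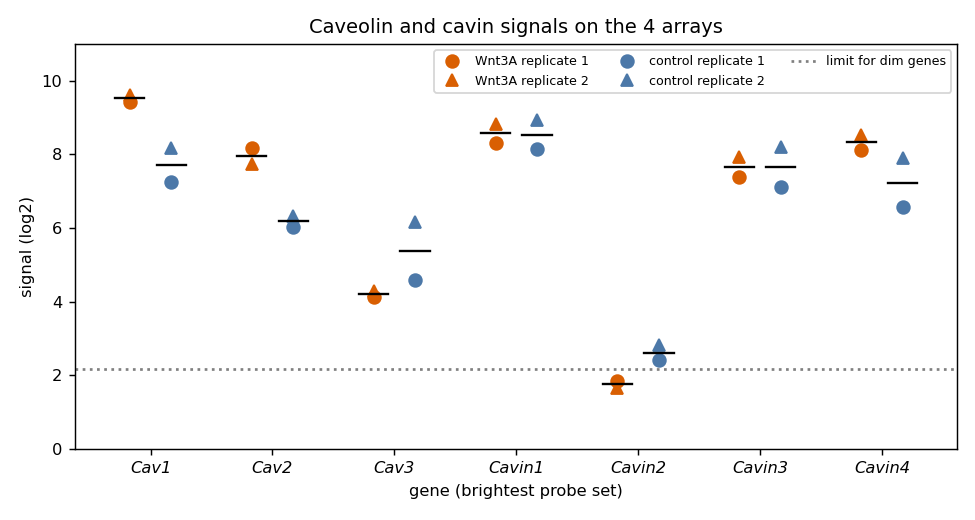
Log2 signal of the brightest probe set of each caveolin and cavin on the Wnt3A arrays (orange, left of each pair) and the control arrays (blue, right); circles are replicate 1, triangles replicate 2, black bars the means of 2 arrays and the dotted line the limit for dim genes. Cav1, Cav2 and Cavin4 lie higher with Wnt3A, Cav3 and Cavin2 lower, and the groups of Cavin1 and Cavin3 overlap.

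Of the caveolins, Cav1 and Cav2 were higher and Cav3 was lower with Wnt3A. Cav1 read 9.43 and 9.61 on the Wnt3A arrays, against 7.26 and 8.17 on the control arrays. The groups did not overlap, the Wnt3A arrays were close together, and control replicate 1 was the lowest array. The means were 9.52 ± 0.12 with Wnt3A and 7.72 ± 0.64 in control (SD, n = 2), a difference of 1.80 (SE 0.34), or 3.49-fold on the linear scale. Cav2, the partner of Cav1 in oligomers, read 8.17 and 7.74 on the Wnt3A arrays, against 6.02 and 6.33 on the control arrays. Here too both Wnt3A arrays lay above both controls, and the arrays of each group were close together. Its means were 7.96 ± 0.31 with Wnt3A and 6.18 ± 0.22 in control (SD, n = 2), a difference of 1.78 (SE 0.27), or 3.43-fold.

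Cav2 and Cav1 are neighbours on chromosome 6, with 0 annotated genes between them in the RefSeq annotation. The other probe set of Cav2 was dim and flat, with 2.50 on both Wnt3A arrays, against 2.51 and 2.43 on the control arrays, so the Cav2 difference rests on 1 of its 2 probe sets. Taking the mean of both probe sets lowered it to 0.91. Leaving out any 1 array kept the difference of Cav1 between 1.35 and 2.26 and that of Cav2 between 1.56 and 1.996.

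Cav3, the muscle caveolin, read 4.11 and 4.29 on the Wnt3A arrays, against 4.58 and 6.17 on the control arrays. Both Wnt3A arrays lay below both controls, but control replicate 1 was near them and control replicate 2 stood far above. The means were 4.203 ± 0.12 with Wnt3A and 5.37 ± 1.12 in control (SD, n = 2), a difference of -1.17 (SE 0.54), or 2.25-fold lower. Leaving out control replicate 2 gave a difference of -0.38, and leaving out control replicate 1 gave -1.97. In RNA from whole cultures, fewer cells that express a gene and less of its RNA per cell cannot be told apart.

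The cavins went 3 ways. Cavin4, the muscle cavin, was higher with Wnt3A, at 8.12 and 8.53 on the Wnt3A arrays, against 6.56 and 7.91 on the control arrays. The groups did not overlap, but control replicate 2 came within 0.21 of the lower Wnt3A array. The means were 8.32 ± 0.29 with Wnt3A and 7.23 ± 0.95 in control (SD, n = 2), a difference of 1.09 (SE 0.48), or 2.13-fold. Leaving out control replicate 2 gave 1.76, and leaving out control replicate 1 gave 0.42.

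Cavin1, the essential coat protein, read 8.32 and 8.83 on the Wnt3A arrays, against 8.14 and 8.93 on the control arrays. The groups overlapped, with the control arrays the lowest and the highest. The difference was 0.04 (SE 0.35), with a 95% confidence interval of -0.85 to 0.92, which does not show that the level stayed the same. Its dimmer probe sets differed by -0.01 and 0.34, the second near the limit for dim genes. Cavin3, first described as a binding partner of protein kinase C delta, read 7.39 and 7.92 on the Wnt3A arrays, against 7.11 and 8.20 on the control arrays. It gave the same picture, with the control arrays on the outside and a difference of -0.0045 (SE 0.42, 95% confidence interval -1.08 to 1.07). Scaling the arrays to their hybridization controls raised the difference of every gene by the same amount. It put both of these differences above 0, at 0.35 for Cavin1 and 0.31 for Cavin3.

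Cavin2, a phosphatidylserine-binding member of the coat, was dim and was lower with Wnt3A in 1 of its 2 probe sets. Its brighter probe set read 1.84 and 1.66 on the Wnt3A arrays, against 2.42 and 2.81 on the control arrays. The groups did not overlap, both Wnt3A arrays lay under the limit for dim genes, and the mean over the 4 arrays passed it by a hair, at 2.182 against 2.179. The difference was -0.87 (SE 0.19), while the other probe set, under the limit, differed by 0.0036. No detection calls were at hand for these dim signals.

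All 7 genes had a probe set above the limit, as did 10 of the 11 probe sets. For 3 genes both Wnt3A arrays lay above both controls, as for 14.7% of the 9295 genes tested, and for 2 both lay below, as for 19.8%. At least 2-fold apart without overlap were 3 higher genes, Cav1, Cav2 and Cavin4, where 1.54% of the genes tested were, and 1 lower gene, Cav3, where 2.09% were. In limma fitted on group only with Benjamini-Hochberg adjustment, 0 of the 7 genes were called at an adjusted p of 0.05, and 0% of all genes were. The lowest adjusted p in that fit was 0.0796, while 528 genes had an unadjusted p under 0.05. That count of 0 depends on the setting, and limma called 49 genes when arrays were scaled to their hybridization controls. With the replicate number added to the fit it called 83 of the 9295, Cav1 and Cav2 among them. The labels do not say that arrays of the same number were paired. As the family was chosen on this contrast, nothing is read from these counts.

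**Figure D2:**
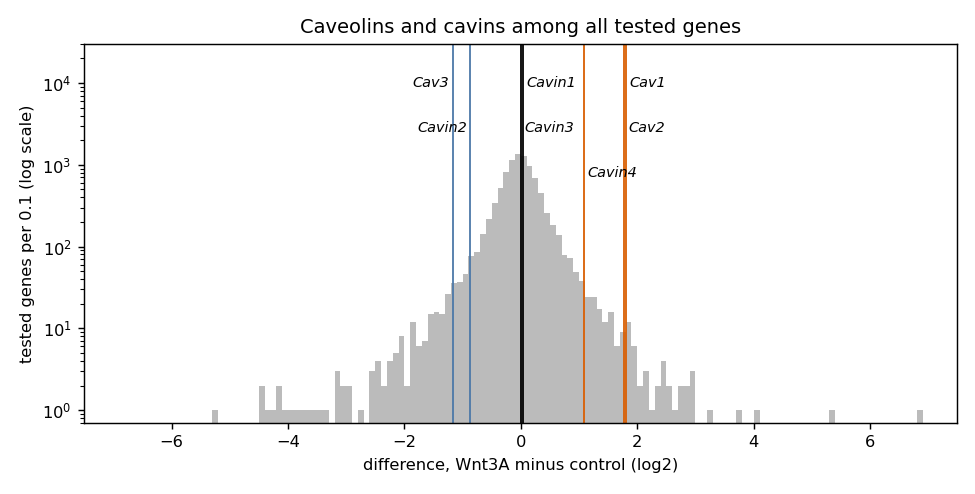
Histogram of the log2 difference, Wnt3A minus control, of the 9295 genes tested (grey, number of genes per bin on a log axis), with a line at each caveolin and cavin. Cav1 at 1.80, Cav2 at 1.78 and Cavin4 at 1.09 lie to the right of most genes, Cav3 at -1.17 and Cavin2 at -0.87 to the left, and Cavin1 and Cavin3 near 0.

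In the range of all genes tested, 99.5% had a lower difference than Cav1 and 99.5% a lower one than Cav2. For Cavin4 that share was 98.3%, for Cavin1 58.2%, for Cavin3 52.2%, for Cavin2 3.18% and for Cav3 1.70%. The median difference of the genes tested was -0.02.

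The 2 control arrays also differed from each other. All 7 genes were higher on control replicate 2 than on control replicate 1, as were 58.4% of the genes tested. The gap was 1.59 for Cav3, 1.34 for Cavin4, 1.08 for Cavin3, 0.91 for Cav1, 0.79 for Cavin1, 0.38 for Cavin2 and 0.31 for Cav2, where the median gene had 0.07. Only the differences of Cav1, Cav2 and Cavin2 were larger than that gap in the same gene by over 1.5 times. On the Wnt3A arrays 5 of the 7 genes were higher in replicate 2, with gaps of at most 0.53. As whole arrays the Wnt3A pair was less alike, with a correlation of 0.957, against 0.978 for the control pair. Wnt3A replicate 1 correlated more with control replicates 1 and 2, at 0.978 and 0.970, than with Wnt3A replicate 2.

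Cav3 and Cavin4 belong to the muscle programme, and their mean differences went opposite ways with Wnt3A. The 95% confidence intervals of both included 0, at -2.55 to 0.20 for Cav3 and -0.13 to 2.30 for Cavin4. Each difference was smaller in size than the gap between the control arrays, 1.59 for Cav3 and 1.34 for Cavin4. A list of 29 genes of differentiated muscle, mainly of the contractile apparatus, had 24 members tested. Of these 23 were lower with Wnt3A. Both Wnt3A arrays lay under both controls for 18 of the 24, where 19.8% of all genes tested did so. The median difference was -0.95, against -0.02 for all genes tested. In limma 0 of the 24 were called (lowest adjusted p = 0.757) and 8 had an unadjusted p under 0.05. Ldb3, a Z-disc protein, differed by -1.09 (SE 0.32), the Z-disc actinin Actn2 by -0.96 (SE 0.30) and the fast myosin light chain Myl1 by -0.94 (SE 0.30). Cav3 at -1.17 lay within the range of the list, -1.41 to 0.35. Cavin4 at 1.09 lay above the highest of them, Myh1, a fast myosin heavy chain.

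The muscle list moved with control replicate 2, and the part of that array in the result was not tested. On that array 22 of the 24 genes were higher than on control replicate 1, by a median of 1.22. Leaving out control replicate 2 gave a median of -0.43, with 21 of 24 lower, and leaving out control replicate 1 gave -1.51. Myog, which drives terminal differentiation, read 7.42 and 6.66 on the Wnt3A arrays, against 8.001 and 9.27 on the control arrays, while Myf5, a factor of undifferentiated myoblasts, read 7.77 and 7.65 with Wnt3A, against 6.57 and 5.98 in control. Myod1 read 6.32 and 3.62 on the Wnt3A arrays, against 6.84 and 7.11 on the control arrays. None of the 3 was called in limma, with adjusted p of 0.809 for Myog, 0.488 for Myf5 and 0.917 for Myod1.

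**Figure D3:**
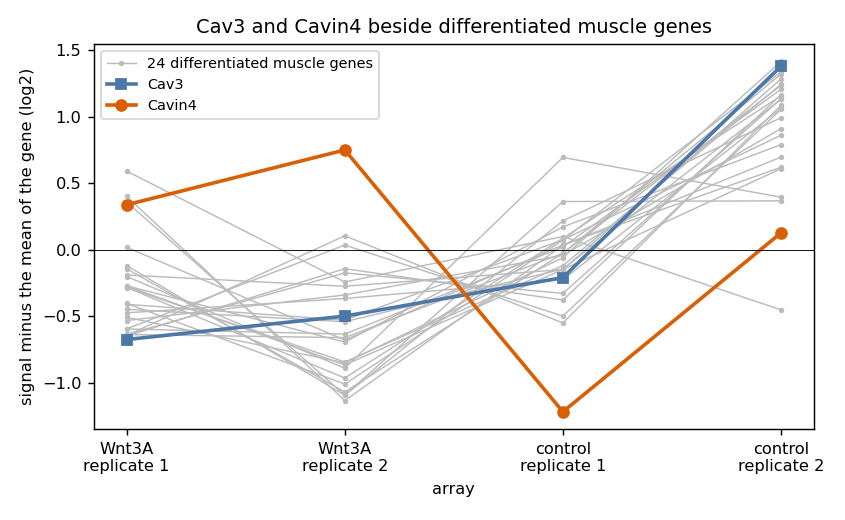
Log2 signal minus the mean of each gene over the 4 arrays, for 24 tested genes of differentiated muscle (grey), Cav3 (blue squares) and Cavin4 (orange circles); lines join the values of 1 gene. Cav3 has its highest value on control replicate 2 like most of the muscle genes, and Cavin4 has its lowest on control replicate 1.

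Cav1 and Cav2 were higher side by side, and the mean differences of Cav3 and Cavin4 went opposite ways. The promoters of these 4 genes, all at least 2-fold apart, are printed to show what they carry at their start sites. Each is the RefSeq window on build GRCm38.p6 from 250 bases before to 50 after the start, on the plus strand, with capitals marking E-boxes (CANNTG, bound by MyoD-family factors among others) and the TATA box TATAAA on either strand. Windows were found for 6 of the 7 genes, with Cavin3 not among them. Cav1 lies at chr6:17306085-17306384, the first of 2 windows, Cav2 at chr6:17280935-17281234, Cav3 at chr6:112459255-112459554 and Cavin4 at chr4:48663264-48663563.
Cav1: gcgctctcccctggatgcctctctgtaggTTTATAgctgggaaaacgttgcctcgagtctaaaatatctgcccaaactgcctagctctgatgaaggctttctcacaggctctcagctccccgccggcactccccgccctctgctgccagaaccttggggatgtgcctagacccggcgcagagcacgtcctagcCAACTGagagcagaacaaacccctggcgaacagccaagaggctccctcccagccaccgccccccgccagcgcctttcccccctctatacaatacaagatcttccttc
Cav2: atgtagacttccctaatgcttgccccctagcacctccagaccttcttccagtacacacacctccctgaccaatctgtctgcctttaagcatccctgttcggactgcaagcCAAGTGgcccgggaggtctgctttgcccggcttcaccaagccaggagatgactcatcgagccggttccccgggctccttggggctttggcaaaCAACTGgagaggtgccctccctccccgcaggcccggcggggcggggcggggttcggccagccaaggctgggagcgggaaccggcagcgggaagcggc
Cav3: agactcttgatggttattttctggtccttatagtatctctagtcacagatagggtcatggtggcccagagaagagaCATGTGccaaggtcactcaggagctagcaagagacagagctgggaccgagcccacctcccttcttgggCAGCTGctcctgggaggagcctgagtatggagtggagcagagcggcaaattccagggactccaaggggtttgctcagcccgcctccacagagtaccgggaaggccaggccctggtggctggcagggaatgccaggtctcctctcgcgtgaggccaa
Cavin4: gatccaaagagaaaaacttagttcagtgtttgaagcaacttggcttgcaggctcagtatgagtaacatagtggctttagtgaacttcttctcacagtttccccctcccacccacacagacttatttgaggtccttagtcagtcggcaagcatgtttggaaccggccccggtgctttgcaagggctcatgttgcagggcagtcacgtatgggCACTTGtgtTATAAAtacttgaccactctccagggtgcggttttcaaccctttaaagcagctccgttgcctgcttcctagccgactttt

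The window of Cav3 held 2 E-boxes, 1 of them CAGCTG, the form preferred by myogenic factors, at position -106 from the start. Any E-box was in 72.3% of the 32851 windows of the same length and CAGCTG in 16.3%. Cavin4 had a TATA box at position -30, as well as 1 E-box of the letters CACTTG. The word TATAAA on either strand was in 13.6% of all windows, and Cav1 had it on the other strand, at position -221. The printed windows of Cav1 and Cav2 shared an E-box of the letters CAACTG, for which no share was computed. Each had 2 GC boxes (GGGCGG on either strand), and at least 1 was in 35.7% of all windows. The second window of Cav1 had 1 E-box, CAGGTG, and held no GC box and no TATAAA. No window of the 6 genes held a TCF/LEF word on either strand, taken as CTTTGAA or CTTTGAT or CTTTGTA or CTTTGTT, which 16.9% of all windows held. A match is a description of the letters only.

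The patterns over the 4 arrays were set side by side as the root mean square (RMS) difference of log2 signals after centring each gene on its own mean, a description over 4 arrays. The Wnt3A minus control difference, on which the family was chosen, is part of this measure. Genes with like differences therefore lie close, and nothing is read from the closeness of members. Cav1 and Cav2 were 0.30 apart, and 0.140% of the genes tested were closer to Cav1 than Cav2 was. Cav1 and Cavin4 were 0.40 apart, and 0.377% were closer to Cav1 than Cavin4 was. Cavin1 and Cavin3 were 0.11 apart, and 1.14% of the genes tested were closer to Cavin1 than Cavin3 was. Cav3 and Cavin4 were 1.14 apart, and Cav1 and Cav3 were 1.51 apart. Outside the family the nearest to Cav1 were Pfn2, an actin-binding profilin, at 0.06 and Inhba, a subunit of activin, at 0.14. Nearest to Cav2 were Npnt, the integrin ligand nephronectin, at 0.07 and the amino acid transporter gene Slc7a7 at 0.12.

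Nearest to Cav3 were genes of muscle, Tnnc2, the fast troponin C, at 0.13 and Itgb1bp2, the integrin-binding chaperone melusin, at 0.14. Nearest to Cavin4 were Adamtsl4 at 0.08 and the proteoglycan gene Cspg4 at 0.09. Cavin2 was nearest to Tmem132a at 0.02 and Echdc2 at 0.04. The patterns of Cavin1 and Cavin3, whose group means were close, had more genes near them, with 7.20% of the genes tested closer than 0.2 to Cavin1 and 2.38% to Cavin3, against 0.0430% to Cav1. Among the nearest were Ncaph at 0.02 and Abhd16a at 0.03 for Cavin1 and Shcbp1 at 0.04 and Pgs1 at 0.05 for Cavin3.

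Proteins that shape or cut the neck of caveolae were mixed in direction. Of 12 genes listed as neck and coat partners, the array carried 11, and 8 passed the limit for dim genes. Of the 8, 3 were higher and 5 lower with Wnt3A, with a median difference of -0.29, and 0 were called in limma (lowest adjusted p = 0.842). Ehd2, the ATPase that holds caveolae at the surface, read 6.73 and 6.55 on the Wnt3A arrays, against 6.46 and 6.81 on the control arrays, and the groups overlapped. Its relative Ehd3 read 5.30 and 5.33 on the Wnt3A arrays, against 6.002 and 5.85 on the control arrays, a difference of -0.61 (SE 0.21, adjusted p = 0.842 in limma). Ehd1 differed by -0.28 and Pacsin3, a membrane-bending F-BAR protein abundant in muscle, by -0.50. Dnm2, the dynamin that cuts vesicles free, differed by 0.18. Leaving out Wnt3A replicate 1 gave a median of -0.41 and leaving out control replicate 2 gave -0.10, and it was above 0, at 0.02, when arrays were scaled to their hybridization controls.

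Flotillins and their relatives of the SPFH family scaffold membrane rafts without caveolin. Of 10 listed genes 6 were tested, 2 higher and 4 lower with Wnt3A, with a median of -0.20 and 0 called in limma (lowest adjusted p = 0.917). Flot1 read 7.14 and 5.48 on the Wnt3A arrays, against 6.96 and 7.19 on the control arrays, a difference of -0.77 (SE 0.58) with only Wnt3A replicate 2 low. Flot2 differed by 0.04. Stom, a raft protein of many cells, differed by 0.39, and its dimmer probe sets above the limit by 0.42, 1.79, 0.94 and 1.19. Stoml2, its mitochondrial relative, differed by -0.52 and the prohibitin gene Phb2 by -0.38. Scaled to hybridization controls the median was 0.12.

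Of 19 receptors and signalling proteins reported in caveolae, 16 were tested, 8 higher and 8 lower with Wnt3A, with a median of 0.02. Leaving out control replicate 2 gave 5 higher and 11 lower and a median of -0.18. In limma 0 were called (lowest adjusted p = 0.658), and 1 had an unadjusted p under 0.05. This was Tgfbr2, the type II receptor of TGF-β, which read 9.44 and 9.37 on the Wnt3A arrays, against 8.34 and 8.78 on the control arrays, a difference of 0.84 (SE 0.22). Cd36, a fatty acid translocase, read 3.25 and 2.41 on the Wnt3A arrays, against 3.54 and 4.60 on the control arrays, and both its groups stood apart. Igf1r differed by -0.70, where its other probe set gave 0.33. Lrp6, the Wnt coreceptor, differed by -0.20 (SE 0.24), with overlapping groups, and its other probe set by 0.06.

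Partners of Cav3 in membrane repair and at T-tubules were mixed in direction. Of 17 genes 15 were tested, 6 higher and 9 lower with Wnt3A, with a median of -0.14 and 0 called in limma (lowest adjusted p = 0.917). Anxa6, a calcium-dependent membrane-binding annexin, differed by -0.63 (SE 0.26), the muscle calpain Capn3 by -0.49 and Ryr1, the calcium release channel, by -0.61. Dysf, the repair protein dysferlin, read 3.72 and 2.97 on the Wnt3A arrays, against 3.01 and 4.25 on the control arrays, with overlapping groups. Bin1, which bends T-tubule membranes, differed by -0.36. Leaving out control replicate 1 gave a median of -0.40, and leaving out control replicate 2 turned it above 0, to 0.06. It was also above 0, at 0.18, under scaling to hybridization controls.

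The clathrin coat, the other main route of uptake, was set beside caveolae. Of 15 genes 13 were tested, 10 higher and 3 lower with Wnt3A, with both Wnt3A arrays above both controls for 5 and below for 2, where 14.7% and 19.8% of all genes tested were so placed. The median was 0.09, and 0 were called in limma (lowest adjusted p = 0.810). Cltc, the clathrin heavy chain, differed by 0.27 (SE 0.17) and the adaptor subunit gene Ap2b1 by 0.61 (SE 0.31). Dab2, an adaptor for lipoprotein receptors, went the other way, at 8.75 and 7.47 on the Wnt3A arrays, against 9.83 and 9.32 on the control arrays. Dab2 thus differed by -1.46 (SE 0.48), with an adjusted p of 0.810 in limma. Leaving out Wnt3A replicate 2 gave 7 higher and 6 lower and a median of 0.05, leaving out control replicate 1 gave 7 higher and 6 lower and a median of 0.07, and leaving out control replicate 2 gave a median of 0.25.

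**Figure D4:**
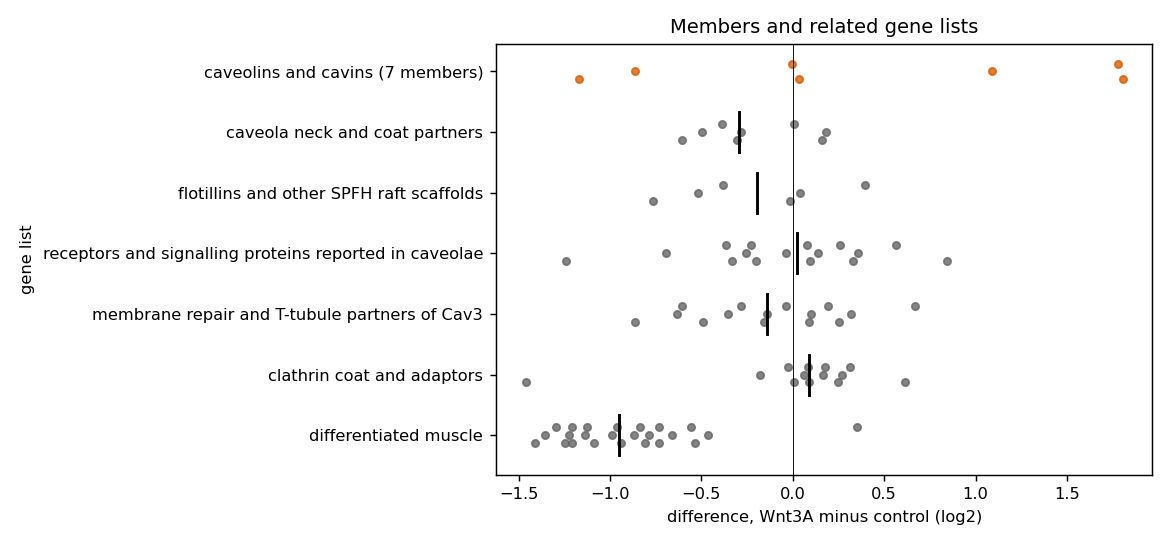
Log2 difference, Wnt3A minus control, of the 7 caveolins and cavins (orange) and of the tested genes of 6 related lists (grey); vertical bars are the medians of the lists, and points are spread vertically only to show them. The caveolins and cavins run from -1.17 to 1.80, and the muscle list has its median at -0.95.

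Caveolae are abundant in fat, endothelial and smooth muscle cells, so markers of these were measured beside the family, and their part in its differences was not tested. Of 9 adipocyte markers the array carried 7 and 4 passed the limit, with a mean signal of 2.72 and 2.46 on the Wnt3A arrays, against 3.47 and 3.17 on the control arrays. Fabp4 differed by -1.32 (SE 0.22), Pparg by -1.34 (SE 0.38) and Lipe by -0.26, while the remaining tested marker, Plin4, differed by 0.0088. The other 3 probe sets of Fabp4, under the limit, differed by -0.03, 0.01 and -0.06. Of 9 endothelial markers 4 were tested, with a mean signal of 2.66 and 2.78 on the Wnt3A arrays, against 2.87 and 2.63 on the control arrays. The 3 of lowest p among them, Kdr, Cldn5 and Egfl7, differed by -0.26, 0.20 and -0.12.

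Of 9 markers of smooth muscle cells and pericytes 8 were tested, 2 higher and 6 lower with Wnt3A, with a mean signal of 5.58 and 5.11 on the Wnt3A arrays, against 5.77 and 6.65 on the control arrays. Rgs5 read 1.72 and 1.47 on the Wnt3A arrays, against 5.04 and 8.68 on the control arrays. Both Wnt3A arrays of Rgs5 lay under the limit for dim genes, which it passed only through its control arrays. Lmod1 differed by -0.50. Cspg4, which also was among the nearest to Cavin4, read 6.70 and 7.19 with Wnt3A, against 5.21 and 6.34 in control. The 8 myoblast markers had a mean signal of 7.55 and 6.83 on the Wnt3A arrays, against 7.24 and 7.67 on the control arrays. In these 4 marker lists 0 genes were called in limma, and the lowest adjusted p was that of Fabp4, 0.453. Scaled to hybridization controls, 1 gene of the smooth muscle and pericyte list was called.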

How the data were processed

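The authors deposited 1 log2 signal per probe set and array; no source names the base, which was inferred from a range of 0.50 to 13.23. The submitters' processing notes name GCOS and PLIER without their roles. The normalization and scan dates are not recorded there, and no build is given for the array data in the sources used. Nothing was normalized again.

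Probe sets were named from the platform annotation, in which 20380 have 1 gene and 691 several, which were not named, and 20351 were matched by Entrez ID to RefSeq symbols. Gene coordinates are not given, and promoter windows are those of RefSeq on build GRCm38.p6. Each gene took the values of its brightest probe set by mean, and the lowest 25% of genes, under a signal of 2.18, were left out, which kept 9295. Differences were tested across all genes in R 4.3.3 with limma 3.58.1 (two-sided, lmFit on group only, eBayes with trend, Benjamini-Hochberg). SEs of the caveolins and cavins come from the same fit over all probe sets. P-values measure the spread between these arrays, which may be technical. The method was checked on simulated signals built from the gene means and the variances of the fit over all genes.

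The members and gene lists were chosen with earlier results of these data known. Of 137 list genes 122 were on the array. Named genes are the members, the 3 of lowest p in each list, 13 on the array that were listed by name and the 2 nearest in pattern to each member. Des, Cdh15, Plin4, Myh1 and the markers named as under the limit fall outside this rule and were chosen after their values were seen. Alternatives were the replicate block, 3 other scalings, 2 filters, mean probe sets, no trend and leaving out each array; counts of list genes with an array left out were added after seeing the data.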

Additional observations from a re-analysis of the deposited data

How the results depend on the processing

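Over all genes, limma called 83 with the replicate block, 49 with scaling to hybridization controls and 1 with the dimmer 50% left out, against 0 in the group-only fit. Arrays with the same number deviated together (r = 0.48 across genes), but the labels do not say that they were paired. With the block the SE of Cav1 was 0.23 and that of Cav2 0.26 in the fit over all probe sets. In the fit over genes, 83 of the 9295 tested were called with the block, and Cav1 and Cav2 were among them. Nothing is read from this, as the family was chosen on this contrast. Scaling to hybridization controls raised the differences of all genes by the same amount, so a small negative value turns positive. It moved the median of all genes to 0.30, so that 83.5% were higher with Wnt3A, against 47.0%. It gave 2.10 for Cav2 and -0.55 for Cavin2, and medians of 0.025 for neck and coat partners, 0.12 for flotillins, 0.34 for receptors, 0.18 for partners of Cav3 and 0.41 for clathrin. Averaging all probe sets of a gene gave 0.91 for Cav2 and -0.43 for Cavin2. With 1 array left out, medians ran from -0.41 to -0.10 for neck and coat partners, -0.39 to -0.053 for flotillins, -0.18 to 0.02 for receptors, -0.40 to 0.061 for partners of Cav3 and 0.050 to 0.25 for clathrin, and 0 genes were called in limma each time. The signs of Cav1, Cav2, Cav3, Cavin2 and Cavin4 stayed under the alternatives run. The block, the trend and the filters leave a gene's difference as it is, so they could not turn a sign. The sign turned in 13 values, of Cavin1, Cavin3 or dimmer probe sets of Cav2, Cavin1 and Cavin2. Of 378 values computed under alternatives, 31 moved by more than the spread between replicates or, for counts, by over 1.5 times. The 378 include the values that could not move. The causes were not tested. With 2 arrays a group, and no detection calls, dim genes such as Cavin2 could be judged only by their signal.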
